A study of Mus musculus with 14 samples.

Results

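Surfactant is the film of lipid and protein that keeps the air sacs of the lung from collapsing, and it is made by the alveolar type II cell. That cell assembles the lipids and the hydrophobic proteins SP-B and SP-C in lamellar bodies, stores them there and releases them into the airspace, while SP-A and SP-D are collectins that bind sugars on microbes. HIF-2α, encoded by Epas1, is an oxygen-regulated transcription factor that newborn mice are known to need for normal surfactant production. The genes described are those of the 4 surfactant proteins (Sftpa1, Sftpb, Sftpc and Sftpd) and of 4 lamellar body and surfactant-processing proteins (Abca3, Napsa, Lamp3 and Lpcat1).

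A probeset was taken as a member where the array annotation names 1 of these 8 genes and no other. That gave 13 of the 22690 probesets in the table, 6 for surfactant proteins and 7 for the other genes, and covered 7 of the 8 genes. The probeset that matches Lamp3 also matches another gene, so no value is given for Lamp3. All 13 passed the filter on low values, a log2 level above 4 in at least 7 of the 14 arrays, and so were among the 12701 probesets tested. Where a gene has several probesets they are numbered from the brightest to the dimmest over all arrays.

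Total RNA from tumours was hybridised to Affymetrix mouse arrays, 7 from control mice and 7 from mice that the labels call both deficient in Hif2alpha and a knockdown. The mice of both groups had a mixed background of the strains 129 SvJ and C57Bl6. The study concerned, as far as is known, lung tumours, but the labels give neither the organ, the age of the mice nor how Hif2alpha was lost. In both groups the lung secretory and type II cell genes Scgb1a1 (13.78 ± 0.05 among controls and 13.84 ± 0.26 among deficient tumours, log2 level, SD, n = 7 each) and Cxcl15 (13.25 ± 0.11 and 13.46 ± 0.18) were far above background. Of 12 tested club and secretory markers Scgb1a1 was the 1 that was higher among deficient tumours, and the other 11 were lower (median difference -1.54).

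Some arrays stood apart. Array medians lay between 5.13 and 5.30, and the mean log2 gap between the 3′ and 5′ control probesets, a measure of RNA quality, was 2.52 to 3.52 among controls and 2.53 to 3.08 among the others. The Epas1 probeset read 5.84 ± 0.69 among controls and 5.65 ± 0.51 among deficient tumours (difference -0.19, SE 0.30, limma adjusted p = 0.807), and whether it lies in the lost part of the gene is not stated. Deficient 3 and deficient 6 had the 2 lowest mean levels of 14 endothelial markers, with deficient 3 at 5.52 where controls ran from 7.33 to 8.50, and deficient 3 was also lowest in 19 markers of type II cells (10.99, controls 11.33 to 11.63). Deficient 1 had the highest endothelial mean, 8.79. Each description opens with a number, and without its last digit 6 such numbers cover the 14 arrays. One is shared by control 1 and control 4 and another by the other 5 controls, so the controls carry 2. Among deficient arrays, 1 and 5, 3 and 6, and 4 and 7 share one each, and deficient 2 has its own. Whether the shortened number marks a mouse is not stated. If it does, the independent samples are fewer than 14, with as few as 2 among controls, and p-values here measure the spread between arrays.

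Between deficient and control tumours the array levels of the surfactant protein transcripts differed by little. These probesets were among the brightest, with 0.0265% to 1.95% of probesets brighter than each. Whether array signal levelled off at this brightness, so that a difference would read too small, was not tested. Over the 6 surfactant protein probesets the log2 difference, deficient minus control, lay between -0.04 and 0.10. Their 95% intervals together reached from -0.25 to 0.39, or 0.838-fold to 1.31-fold, and treat the arrays as independent. With the shortened number of the descriptions as a random block (correlation within a number 0.35) the SE was larger for all 6. It rose from 0.13 to 0.18 for the second Sftpa1 probeset and from 0.07 to 0.10 for Sftpb. Of the 13 member probesets 0 passed an adjusted p of 0.05 in the limma fit over all probesets tested, where 0.0394% of probesets passed (5 of 12701). At an unadjusted p under 0.05 there were 2 members, both probesets of Lpcat1 and both higher among deficient tumours, where 8.09% of tested probesets lay past that level on the higher side. The member probesets were higher in 10 cases and lower in 3, where 52.6% of tested probesets were higher, or 8 and 5 after quantile normalisation, which turned the sign of Sftpb and Sftpd. Their median difference was 0.10, against 0.02 over all probesets tested, and it turned on a few arrays. It was 0.05 without deficient 1 and 0.04 without deficient 5, and without both it was 0.03 against 0.05 over all probesets tested. Without deficient 3 and deficient 6 it was 0.17 against 0.01.

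**Figure D1:**
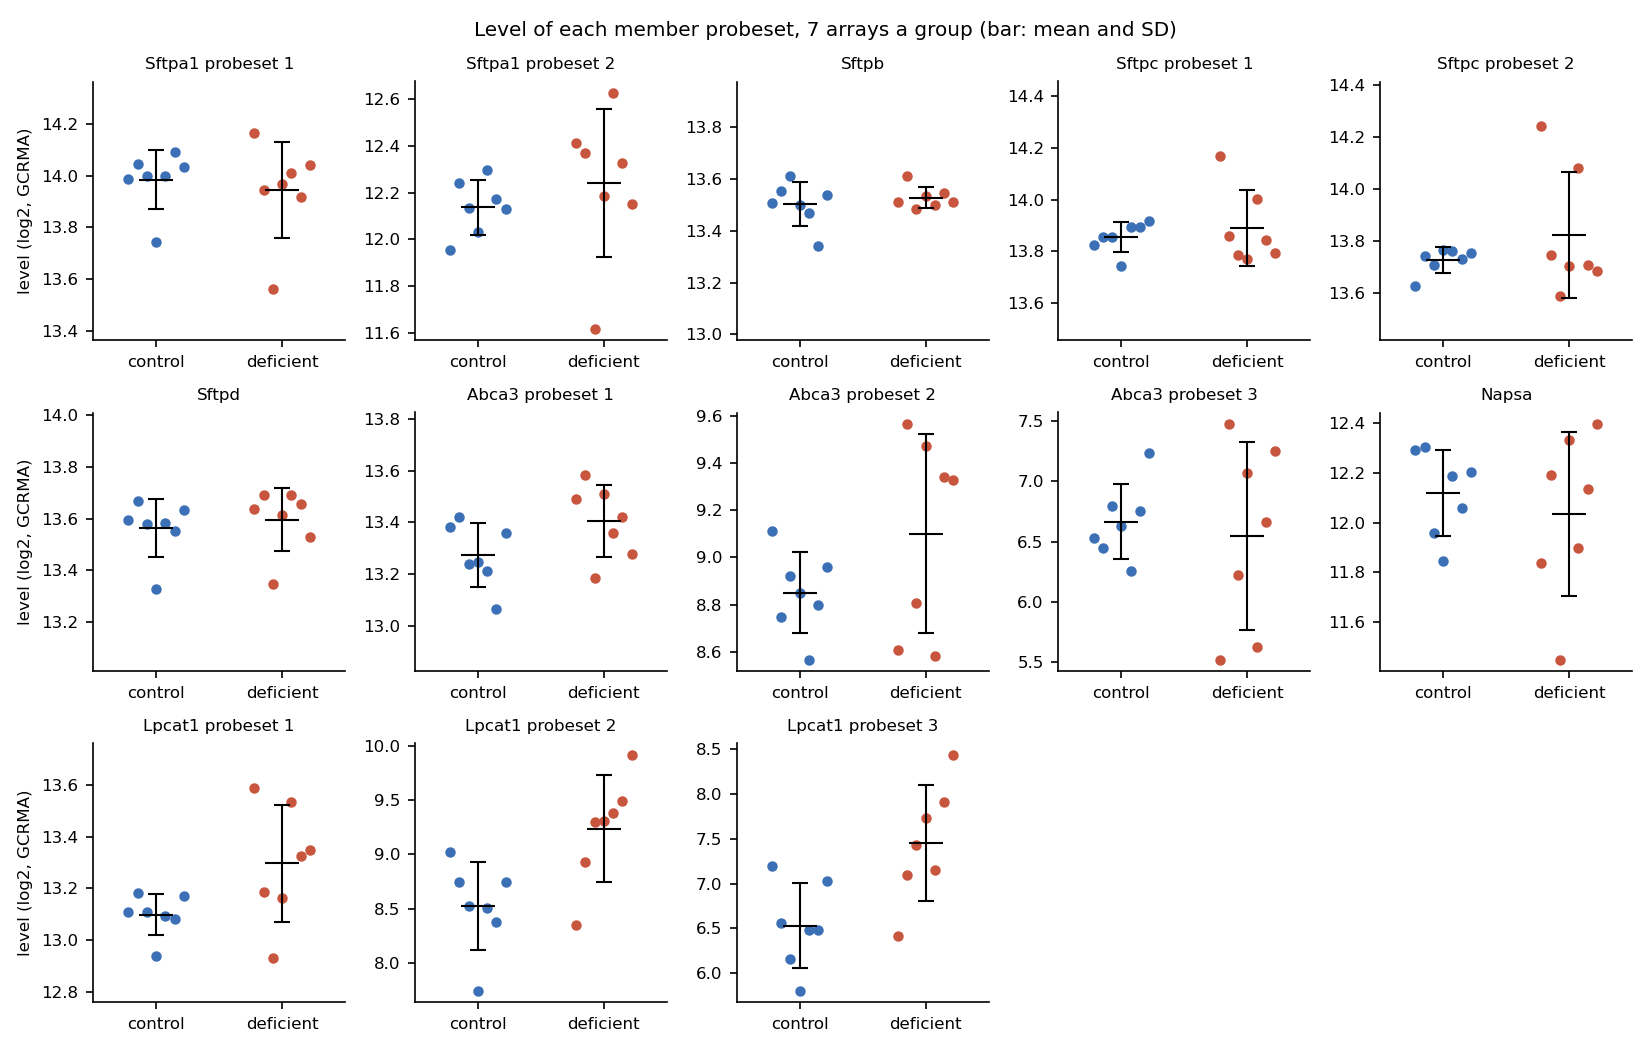
The log2 level of each of the 13 member probesets is plotted for 7 control arrays (blue) and 7 deficient arrays (red), with the mean and SD as black bars and a separate vertical scale in each panel. Sftpb is the tightest, between 13.34 and 13.61 in all arrays, while the third Lpcat1 probeset spans 5.80 to 8.43.

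The hydrophobic proteins SP-B and SP-C come first. Sftpb encodes SP-B, which spreads lipid at the air surface and without which lamellar bodies do not form properly. Its probeset (1437028_at) read 13.34, 13.51 and 13.61 among controls (lowest, median and highest log2 level) and 13.48, 13.51 and 13.61 among deficient tumours. All 7 deficient arrays lay within the control range. The difference was 0.03 (SE 0.07, 95% interval -0.13 to 0.18, limma adjusted p = 0.907), and its sign turned under quantile normalisation (-0.00442). Sftpb was the 1 member whose SD was smaller among deficient tumours, 0.042 against 0.084.

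Sftpc encodes SP-C, a short and very hydrophobic peptide that type II cells make. Which cells of these tumours held its transcript was not tested. Its first probeset (1418639_at) read 13.74, 13.85 and 13.92 among controls and 13.77, 13.84 and 14.17 among deficient tumours. Deficient 1 (14.17) and deficient 5 (14.001) were above every control array, and the other 5 lay within the control range. The difference was 0.04 (SE 0.09, 95% interval -0.15 to 0.22, limma adjusted p = 0.886), and without deficient 1 and deficient 5 it was -0.04 (SE 0.08).

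The second Sftpc probeset (1438290_x_at) has a suffix that marks probes similar to other sequences. It read 13.62, 13.74 and 13.76 among controls and 13.59, 13.71 and 14.24 among deficient tumours, again with deficient 1 (14.24) and deficient 5 (14.08) on top. The difference was 0.10 (SE 0.11, limma adjusted p = 0.713), and -0.04 without those arrays. Its SD was 0.049 among controls and 0.24 among deficient tumours.

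Sftpa1 encodes the collectin SP-A, which also shapes the lipid film that leaves the cell. Its first probeset (1422334_a_at) read 13.74, 13.997 and 14.09 among controls and 13.56, 13.97 and 14.16 among deficient tumours. Deficient 3 was below every control array, deficient 1 was above every one, and 5 lay within the control range. The difference was -0.04 (SE 0.10, 95% interval -0.25 to 0.17, limma adjusted p = 0.887), and 0.02 without deficient 3.

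The second Sftpa1 probeset (1429626_at) read 11.96, 12.13 and 12.30 among controls and 11.62, 12.33 and 12.62 among deficient tumours. Here 4 deficient arrays were above every control array and deficient 3 was below every one. The difference was 0.10 (SE 0.13, 95% interval -0.18 to 0.39, limma adjusted p = 0.754), 0.21 without deficient 3 and deficient 6, and -0.01 without deficient 1 and deficient 5.

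Sftpd encodes SP-D, the collectin that clears microbes and also limits the surfactant pool. Its probeset (1420378_at) read 13.33, 13.59 and 13.67 among controls and 13.35, 13.64 and 13.69 among deficient tumours. Deficient 2 and deficient 5 were above every control array by a small margin, and 5 lay within the control range. The difference was 0.03 (SE 0.09, 95% interval -0.15 to 0.22, limma adjusted p = 0.897), and -0.00112 after quantile normalisation. In the RefSeq gene map Sftpa1 and Sftpd lie on either side of Mbl1, the gene of another collectin, chosen here for its position after values were seen. Mbl1 read 6.12 ± 0.40 among controls and 5.96 ± 0.33 among deficient tumours (difference -0.15, SE 0.19, limma adjusted p = 0.747).

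The 250 bases upstream of the start sites of Sftpa1 and Sftpb are shown because both hold the core that NKX2-1, a regulator of surfactant genes, is known to bind. They come from the RefSeq promoter table on build GRCm38.p6, which has 5 of the 8 genes. Capitals mark matches on either strand to TCAAG, to the HIF cores ACGTG and GCGTG, and to the FOXA motifs TGTTTAC and TGTTTGC. Both windows are on the plus strand, at chr14:41131538-41131787 for Sftpa1 and chr6:72304360-72304609 for Sftpb.
Sftpa1: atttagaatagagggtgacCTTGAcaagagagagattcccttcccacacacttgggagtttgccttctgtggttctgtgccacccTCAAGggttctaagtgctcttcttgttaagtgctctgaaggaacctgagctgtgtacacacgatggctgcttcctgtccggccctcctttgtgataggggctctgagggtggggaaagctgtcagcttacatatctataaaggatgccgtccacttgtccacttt
Sftpb: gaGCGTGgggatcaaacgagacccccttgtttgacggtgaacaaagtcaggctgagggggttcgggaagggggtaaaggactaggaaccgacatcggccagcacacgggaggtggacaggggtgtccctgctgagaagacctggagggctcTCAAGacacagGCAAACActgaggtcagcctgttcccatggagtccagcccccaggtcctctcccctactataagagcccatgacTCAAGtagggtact
Each holds TCAAG 2 times. In Sftpb these lie at bases -99 to -95 and -14 to -10 from the start site, with TGTTTGC on the other strand at -88 to -82 and GCGTG at -248 to -244. Windows of this length hold TCAAG in 35.9% of the 32851 promoters of the table, GCGTG in 28.2%, ACGTG in 16.6%, TGTTTGC in 4.30% and TGTTTAC in 3.17%. A match is a description of letters and not a shown binding site.

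Among the lamellar body genes Lpcat1 had the widest differences. LPCAT1 is the acyltransferase that makes the disaturated phosphatidylcholine of surfactant. Its first probeset (1451359_at) read 12.94, 13.11 and 13.18 among controls and 12.93, 13.33 and 13.59 among deficient tumours. Deficient 1, 2, 5, 6 and 7 were above every control array, while deficient 3 was below every one. The difference was 0.20 (SE 0.11, 95% interval -0.03 to 0.42, 1.15-fold, limma adjusted p = 0.402), and 0.09 without deficient 1 and deficient 5.

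The second Lpcat1 probeset (1424460_s_at), whose suffix marks probes shared by several transcripts, read 7.74, 8.53 and 9.03 among controls and 8.35, 9.31 and 9.92 among deficient tumours. In 5 of the 7 deficient arrays it was above every control array, and deficient 1 and deficient 2 lay within the control range. The difference was 0.72 (SE 0.23, 95% interval 0.23 to 1.20, 1.64-fold). It did not pass over all probesets tested (limma p = 0.00708, limma adjusted p = 0.184, exact permutation p = 0.0122 unadjusted).

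The third Lpcat1 probeset (1424459_at) read 5.80, 6.49 and 7.19 among controls and 6.41, 7.44 and 8.43 among deficient tumours. It was above every control array in 4 deficient arrays (3, 4, 6 and 7), and deficient 1, 2 and 5 lay within the control range. The difference was 0.92 (SE 0.29, 95% interval 0.32 to 1.53, 1.90-fold, limma p = 0.00565, adjusted p = 0.173, exact permutation p = 0.0140 unadjusted). Without deficient 1 and deficient 5 it was 1.19 (SE 0.26, limma adjusted p = 0.0403), a setting in which 264 of 12609 probesets passed. This probeset was the 1 member past the threshold under any omission of arrays, and only under that of deficient 1 and deficient 5. That omission was added after the data were seen. With 1 array left out at a time the adjusted p of this probeset ran from 0.0800 to 0.305. Array weights, which count arrays that stand apart for less, called the second and the third probesets (limma adjusted p = 0.0223 and 0.0178). In that fit 1900 of the 12701 probesets tested passed. With the shortened number of the descriptions as a random block the limma p was 0.0437 and 0.0333 and the adjusted p 0.989 for both. There 0 of 12701 probesets passed. That fit still counts arrays and not numbers, and each number lies in a single group, so its p-values may be too small.

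The probesets of Lpcat1 differed in how they varied between arrays. After removal of the group means, the second and the third moved together over the 14 arrays (Pearson r = 0.91, permutation p = 3.0e-05, adjusted p = 0.000240 over the 8 pairs of probesets of 1 gene; Spearman rho = 0.91, permutation p = 5.0e-05; r = 0.85 without the 2 arrays farthest from the median). Within the groups r was 0.89 among controls and 0.93 among deficient tumours (exact permutation p = 0.00615 and 0.00397, adjusted p = 0.0246 and 0.0212 over 16 such relations). Between the first and the third no relation passed (r = -0.12, permutation p = 0.739; rho = 0.09, permutation p = 0.774; r = 0.25 without deficient 3 and deficient 1). Within the groups it was 0.69 among controls and -0.34 among deficient tumours (exact permutation p = 0.0853 and 0.458, adjusted p = 0.195 and 0.610). Deficient 1 held the highest level of the first probeset, 13.59, and the lowest deficient level of the third, 6.41. The gap between the first and the third probesets within an array was 6.57 ± 0.43 among controls and 5.84 ± 0.76 among deficient tumours (SD, n = 7 each), a difference of -0.73 (exact permutation p = 0.0495, adjusted p = 0.188 over 8 gaps). Which transcripts each probeset reads was not tested.

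**Figure D2:**
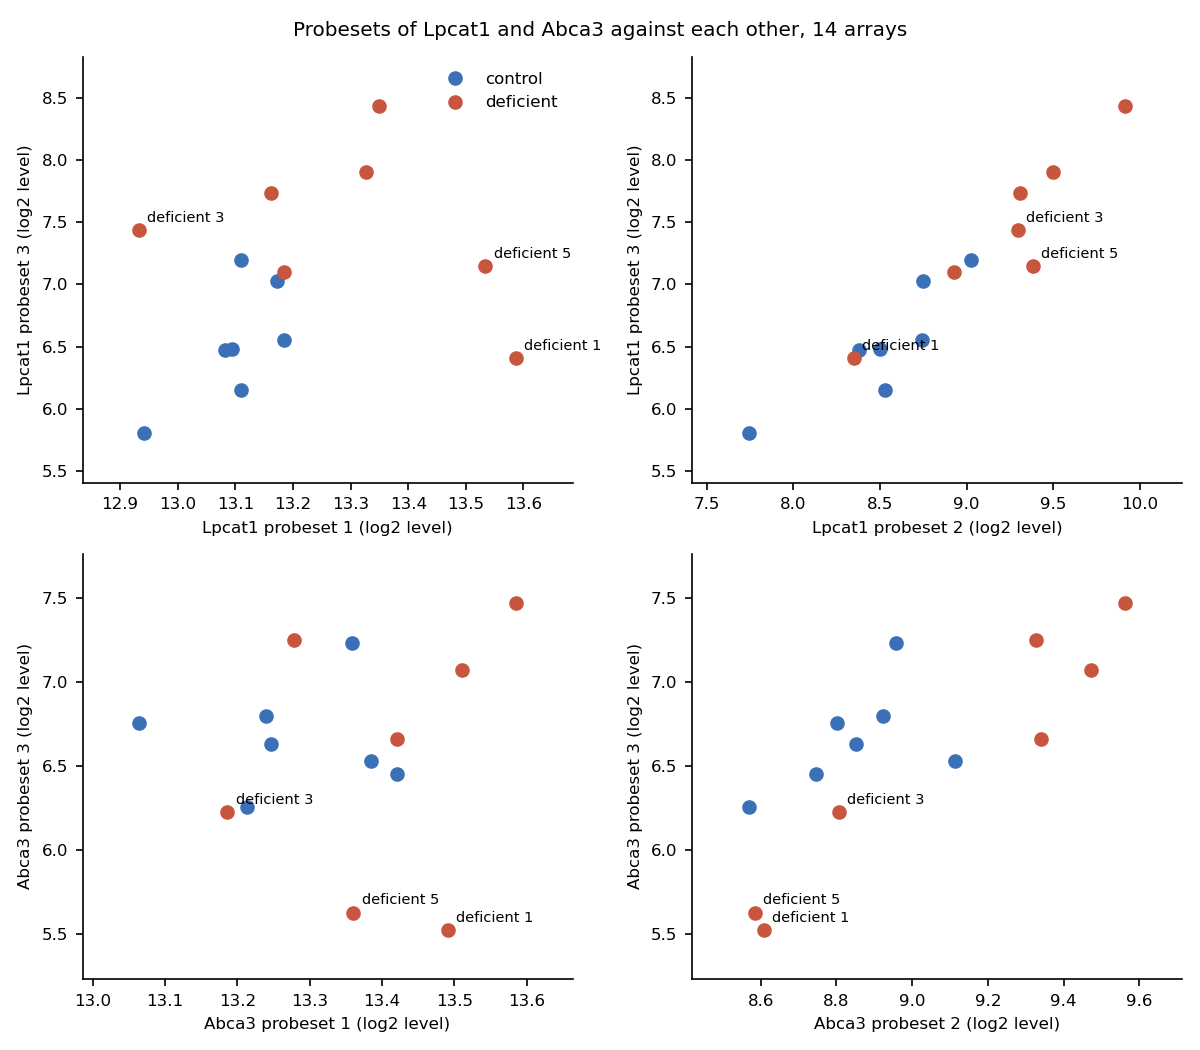
Each point is 1 of the 14 arrays (blue control, red deficient) and both axes are log2 levels, with the first against the third probeset on the left and the second against the third on the right, for Lpcat1 above and Abca3 below. On the right the dimmer probesets rise together (r = 0.91 for Lpcat1 and 0.90 for Abca3 after removal of group means), and on the left deficient 1 and deficient 5 are the 2 rightmost points for Lpcat1 and the 2 lowest points for Abca3.

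Abca3 encodes the transporter that pumps phospholipid into the lamellar body. Its first probeset (1451731_at) read 13.06, 13.25 and 13.42 among controls and 13.19, 13.42 and 13.59 among deficient tumours, with deficient 1, 2, 4 and 6 above every control array and 3 within the control range. The difference was 0.13 (SE 0.09, 95% interval -0.07 to 0.33, limma adjusted p = 0.546).

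The second Abca3 probeset (1425496_at) read 8.57, 8.85 and 9.11 among controls and 8.58, 9.33 and 9.56 among deficient tumours. Deficient 2, 4, 6 and 7 were above every control array (9.33 to 9.56), and deficient 1, 3 and 5 lay within the control range (8.58 to 8.81). The difference was 0.25 (SE 0.17, 95% interval -0.11 to 0.61, limma adjusted p = 0.526), and 0.45 (SE 0.14, adjusted p = 0.0976) without deficient 1 and deficient 5. Array weights gave 0.50 and called it (limma adjusted p = 0.0357), among 1900 of the 12701 probesets tested.

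The third Abca3 probeset (1451869_at) read 6.26, 6.63 and 7.23 among controls and 5.52, 6.66 and 7.47 among deficient tumours. Deficient 1 (5.52), deficient 5 (5.63) and deficient 3 (6.22) were below every control array, and deficient 2 (7.47) and deficient 7 (7.25) were above every one. The difference was -0.12 (SE 0.30, limma adjusted p = 0.890), and 0.27 (SE 0.22) without deficient 1 and deficient 5. The second and the third probesets moved together (r = 0.90, permutation p = 0.000750, adjusted p = 0.00300; rho = 0.84, permutation p = 0.00407; r = 0.80 without deficient 5 and deficient 1). Within the groups r was 0.96 among deficient tumours (exact permutation p = 0.00238, adjusted p = 0.0206 over 16 such relations) and 0.52 among controls (exact permutation p = 0.215, adjusted p = 0.429). Between the first and the third r was lower (r = 0.17, permutation p = 0.596; rho = 0.20, permutation p = 0.521; r = 0.16 without deficient 3 and control 6).

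Napsa encodes napsin A, an aspartic protease that trims the SP-B precursor. Its probeset (1423590_at) read 11.85, 12.19 and 12.30 among controls and 11.45, 12.14 and 12.40 among deficient tumours. Deficient 4 and deficient 7 were above every control array, and deficient 1 and deficient 3 were below every one. The difference was -0.09 (SE 0.14, 95% interval -0.39 to 0.22, limma adjusted p = 0.819), and 0.01 without deficient 3.

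The upstream windows of Abca3 and Lpcat1 are shown because they hold HIF cores and no TCAAG. Both are on the plus strand, at chr17:24351773-24352022 for Abca3 and chr13:73466981-73467230 for Lpcat1, with capitals as above.
Abca3: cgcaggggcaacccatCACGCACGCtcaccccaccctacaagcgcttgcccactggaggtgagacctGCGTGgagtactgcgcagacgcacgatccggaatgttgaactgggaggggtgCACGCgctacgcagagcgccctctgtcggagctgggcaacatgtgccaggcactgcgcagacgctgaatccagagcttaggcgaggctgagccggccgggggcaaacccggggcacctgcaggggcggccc
Lpcat1: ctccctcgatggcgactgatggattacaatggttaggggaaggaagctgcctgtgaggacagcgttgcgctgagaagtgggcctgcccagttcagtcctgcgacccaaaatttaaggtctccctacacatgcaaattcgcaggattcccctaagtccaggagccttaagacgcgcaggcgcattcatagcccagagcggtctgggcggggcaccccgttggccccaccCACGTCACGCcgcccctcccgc
Abca3 holds GCGTG 4 times, of which the matches at -234 to -230 and -230 to -226 share 1 base. Lpcat1 holds ACGTG on the other strand at -22 to -18 and GCGTG on the other strand at -17 to -13. The windows of Abca3 and Lpcat1 have 21 and 16 CG pairs of bases, and those of Sftpb and Sftpa1 have 7 and 3, where the median promoter has 6. The window of Lamp3 holds TGTTTAC 1 time and no CG pair.

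**Figure D3:**
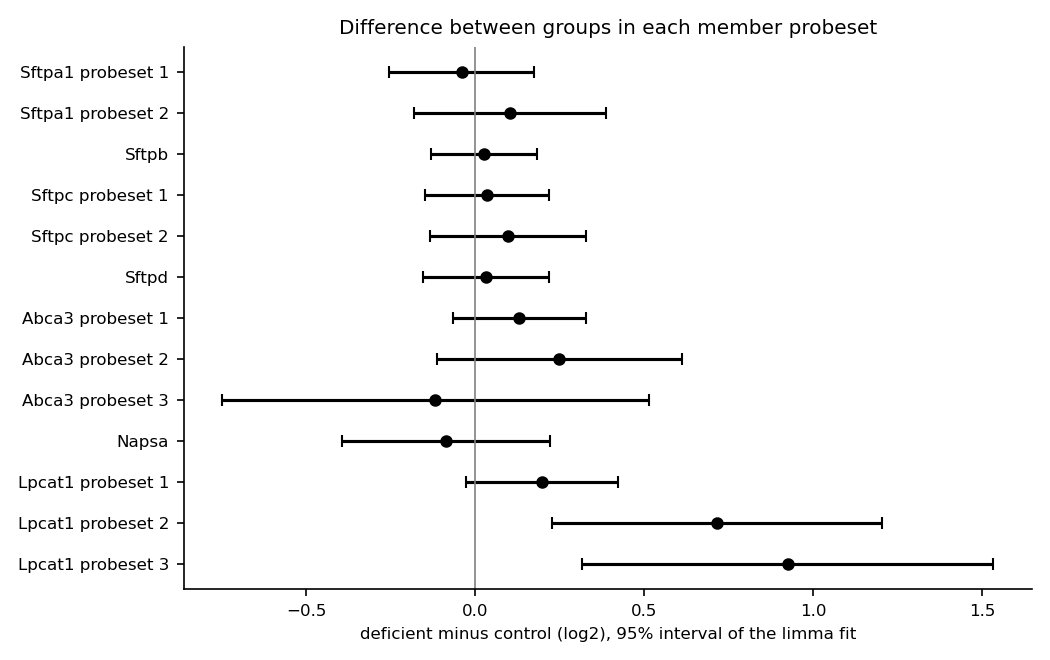
Points are the log2 difference, deficient minus control, of the 13 member probesets and bars are the 95% interval of the limma fit to 14 arrays. The intervals of the second and the third Lpcat1 probesets (0.23 to 1.20 and 0.32 to 1.53) leave out 0 before adjustment, and those of the 6 surfactant protein probesets lie between -0.25 and 0.39.

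The members spread more widely among deficient than among control arrays. The SD was larger among deficient tumours in 12 of 13 member probesets, with a median ratio of 1.91. Over all probesets tested it was larger in 69.4%, with a median ratio of 1.31. The control arrays carry 2 shortened description numbers and the deficient arrays 4, and the part of this in the spread was not tested. In both Sftpa1 probesets, the second Sftpc probeset, Napsa and the first Lpcat1 probeset deficient 3 was the lowest of the 14 arrays, at 13.56, 11.62, 13.59, 11.45 and 12.93. In both Sftpc probesets and the first Lpcat1 probeset deficient 1 and deficient 5 were the 2 highest. Control 4 was the lowest control array in the first probesets of Sftpa1, Sftpc and Lpcat1 and in Sftpd, Napsa and the dimmer Lpcat1 probesets. In bulk tumour RNA fewer cells that express these genes, tumour cells or others, and less RNA per cell cannot be told apart.

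**Figure D4:**
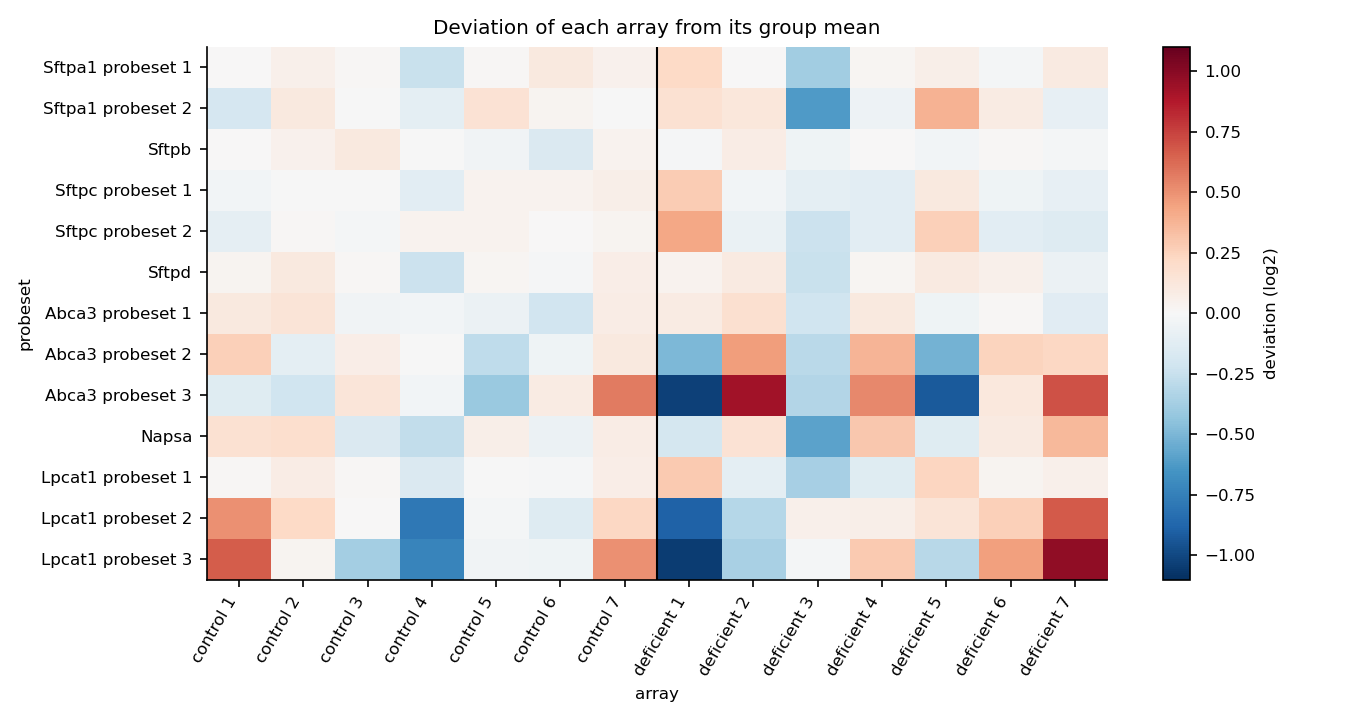
Colours give the deviation of each array (columns, controls left of the black line) from its group mean in log2, for each of the 13 member probesets (rows). Deficient 3 and control 4 are each negative in 12 of the 13 probesets. Deficient 1 is positive in both Sftpc probesets (0.28 and 0.42) and negative in the third probesets of Abca3 (-1.02) and of Lpcat1 (-1.04).

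Between genes the members moved together in part. Over the 21 pairs of 7 genes, each by its first or single probeset with group means removed, Pearson r was above 0 in 18 and ran from -0.16 to 0.84. The same share over pairs of other genes was not computed. Several positive values turned negative without the 2 arrays farthest from the median of the first gene. For Sftpa1 and Sftpd r went from 0.78 to -0.22, and for Napsa and Lpcat1 from 0.29 to -0.58. The pairs named below stayed above 0. After adjustment over the 21 pairs 4 passed by Pearson r and 0 by Spearman rho. Sftpa1 and Lpcat1 gave r = 0.84 (permutation p = 0.00104, adjusted p = 0.0218; rho = 0.67, adjusted permutation p = 0.0884), and 0.67 without deficient 3 and control 4. Sftpc and Lpcat1 gave r = 0.79 (permutation p = 0.00456, adjusted p = 0.0384; rho = 0.72, adjusted permutation p = 0.0771), and 0.61 without deficient 1 and deficient 5.

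Sftpb and Abca3 gave r = 0.68 (permutation p = 0.00638, adjusted p = 0.0384; rho = 0.74, adjusted permutation p = 0.0771), and 0.81 without control 6 and control 3. Sftpd and Lpcat1 gave r = 0.68 (permutation p = 0.00732, adjusted p = 0.0384; rho = 0.65, adjusted permutation p = 0.0884). That relation rested on deficient 3 and control 4, without which r was 0.21. The arrays of a pair share RNA and array normalisation, and those with a shared shortened number may share a mouse.

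The 6 genes outside this set that followed the members most closely were Pcdhb9 (r = 0.94), Casp12 (0.92), Olfml3 (0.91), Cyp7b1 (0.91), Lifr (0.91) and Sparcl1 (0.91). The measure was the Pearson r over 14 arrays, group means removed, with the mean standardised deviation of the 7 genes, among 7764 other genes tested, and is a description with no test. That mean deviation was -1.82 in deficient 3 and -1.02 in control 4, and between -0.51 and 0.85 in the other arrays. None of the 6 passed the test between groups, and the widest difference was that of Cyp7b1 (-0.87, SE 0.53, limma adjusted p = 0.457). The first 2 were dim, near the filter's level of 4. Pcdhb9 read 4.98 ± 0.53 among controls and 4.55 ± 1.19 among deficient tumours, and Casp12 read 5.30 ± 0.42 and 5.56 ± 1.42. The others of the 6 read higher in both groups.

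Of 18 tested genes of lamellar body traffic and proprotein processing 14 were higher and 4 lower, with a median of 0.05, and 0 passed over all probesets tested. At an unadjusted p under 0.05 were 5 on the higher side and 1 on the lower, where 6.57% of all tested probesets lay past that level on the lower side, 8.09% on the higher, and 52.6% had a difference above 0. The same shares stand behind the counts of the lists that follow. The median was 0.08 without deficient 3 and deficient 6 and 0.09 without deficient 1 and deficient 5. Ctsh, which encodes cathepsin H, another protease of the SP-B precursor, read 12.63 ± 0.13 among controls and 12.86 ± 0.13 among deficient tumours (difference 0.22, SE 0.09, limma adjusted p = 0.282). Rab38, a small GTPase gene of lamellar body formation, differed by 0.71 (SE 0.26, limma adjusted p = 0.240). The membrane fusion gene Snap23 differed by 0.44 (SE 0.11, limma adjusted p = 0.134), with -0.06 and 0.33 in its other probesets. The ubiquitin ligase gene Nedd4l differed by -0.44 (SE 0.17, limma adjusted p = 0.254).

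Lipid synthesis gave no common direction. Of 15 tested genes 7 were higher and 8 lower, with a median of -0.08, and 0 passed (1 higher and 2 lower at an unadjusted p under 0.05). Gpam, which encodes the acyltransferase that starts glycerolipid synthesis, read 10.86 ± 0.56 and 9.59 ± 1.30 (difference -1.28, SE 0.49, limma adjusted p = 0.253). The choline kinase gene Chkb differed by -0.29 (SE 0.13), the fatty acid binding protein gene Fabp5 by 0.35 (SE 0.15) and the elongase gene Elovl1 by 0.02 (SE 0.15). The median was 0.03 without deficient 3 and deficient 6.

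Transcription factors known to act on surfactant genes were 8 higher and 9 lower of 17 tested, with a median of -0.02, and 0 passed (1 lower at an unadjusted p under 0.05). Without deficient 1 and deficient 5 the median was -0.12. Cebpb read 9.10 ± 0.45 among controls and 8.26 ± 0.31 among deficient tumours, with 7 of 7 deficient arrays under the control mean (difference -0.85, SE 0.20, limma adjusted p = 0.126). Cebpa, a related factor of type II cell maturation, differed by 0.17 (SE 0.11), Stat3 by -0.28 (SE 0.13; -0.42 in a second probeset) and Hopx by -0.70 (SE 0.35; -0.94 in a second probeset). Hopx is also counted among the type I markers below. The probeset of Nkx2-1 was left out by the filter, with levels of 2.41 to 4.05, and gives only a bound.

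Genes of surfactant uptake and clearance were 3 higher and 9 lower of 12 tested, with a median of -0.21, and 0 passed (1 higher and 1 lower at an unadjusted p under 0.05). Alveolar macrophages take up spent surfactant under the cytokine GM-CSF. Csf2rb, a receptor chain for GM-CSF, read 7.68 ± 0.22 and 6.80 ± 0.92 (difference -0.88, SE 0.33, limma adjusted p = 0.251). The lipid receptor gene Cd36 differed by 0.32 (SE 0.13, with 0.41 and 0.54 in other probesets, limma adjusted p = 0.288), Abca1 by -0.28 (SE 0.18) and Lyz2 by 0.02 (SE 0.11). Beside them, 12 of 13 tested macrophage markers were lower, with a median of -0.42 and 2 lower at an unadjusted p under 0.05. Marco and Msr1 are in both lists. The mean level of the macrophage markers was 8.07 to 9.50 among controls and 7.98 to 9.03 among deficient tumours, and the part of macrophage number in these values was not tested. Of the 6 tested genes of other collectins and of proteins related to surfactant proteins, a list that holds Sftpd, 5 were lower (median -0.14). Psap, the prosaposin gene related to Sftpb, differed by -0.22 (SE 0.11; -0.44 in a second probeset; limma adjusted p = 0.390), Colec12 by -0.51 (SE 0.39) and Itm2b by -0.13 (SE 0.12; 0.06 in a second probeset).

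Of 19 tested type II markers, several of which are also in the lists above, 12 were higher and 7 lower, with 5 on the higher side at an unadjusted p under 0.05, 0 over all probesets tested, a median of 0.05 and mean levels of 11.33 to 11.63 among controls and 10.99 to 11.73 among deficient tumours. That median was 0.17 without deficient 3 and deficient 6 and -0.05 without deficient 1 and deficient 5. Slc34a2, the phosphate transporter gene of type II cells, read 12.58 ± 0.05 and 12.74 ± 0.24 (difference 0.16, SE 0.11, limma adjusted p = 0.515), and is named outside the rule. The small GTPase gene Rab27a differed by 0.68 (SE 0.28, limma adjusted p = 0.277) and Cd74 by -0.09 (SE 0.07). Rab27a was dim, at 4.45 ± 0.34 among controls and 5.13 ± 0.71 among deficient tumours, near the filter's level of 4.

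Markers of other cells had lower medians among deficient tumours, and 0 of these genes passed over all probesets tested. The median was -1.54 for 12 tested club and secretory markers (11 lower), -2.32 for 5 ciliated markers (5 lower), -0.63 for 14 endothelial markers (14 lower), -0.41 for 13 fibroblast and matrix markers (11 lower) and -0.16 for 10 type I markers (7 lower). At an unadjusted p under 0.05 on the lower side were 8, 5, 1, 4 and 2 of them in that order, where 6.57% of all tested probesets were. The mean level of club markers was 9.79 to 12.28 among controls and 8.57 to 9.89 among deficient tumours, and that of ciliated markers 6.65 to 10.07 and 4.85 to 7.98. It was 9.32 to 9.98 and 8.14 to 9.72 for fibroblast markers, and 10.30 to 11.02 and 9.03 to 10.83 for type I markers. Without deficient 3 and deficient 6 the endothelial median was -0.00033 and the type I median 0.01, and without deficient 1 and deficient 5 they were -1.30 and -0.24. The ciliated regulator Foxj1 was below the filter. Cell cycle genes had a median of 0.19, with 6 of 10 higher (3 past an unadjusted p of 0.05), and the median was 0.32 without deficient 3 and deficient 6 and 0.34 without deficient 1 and deficient 5. Over the same arrays the 4 surfactant genes had a median of 0.03 (0.05 without deficient 3 and deficient 6, -0.02 without deficient 1 and deficient 5) and mean levels of 13.58 to 13.78 among controls and 13.54 to 13.87 among deficient tumours. The part of these markers in the members' values was not tested.

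**Figure D5:**
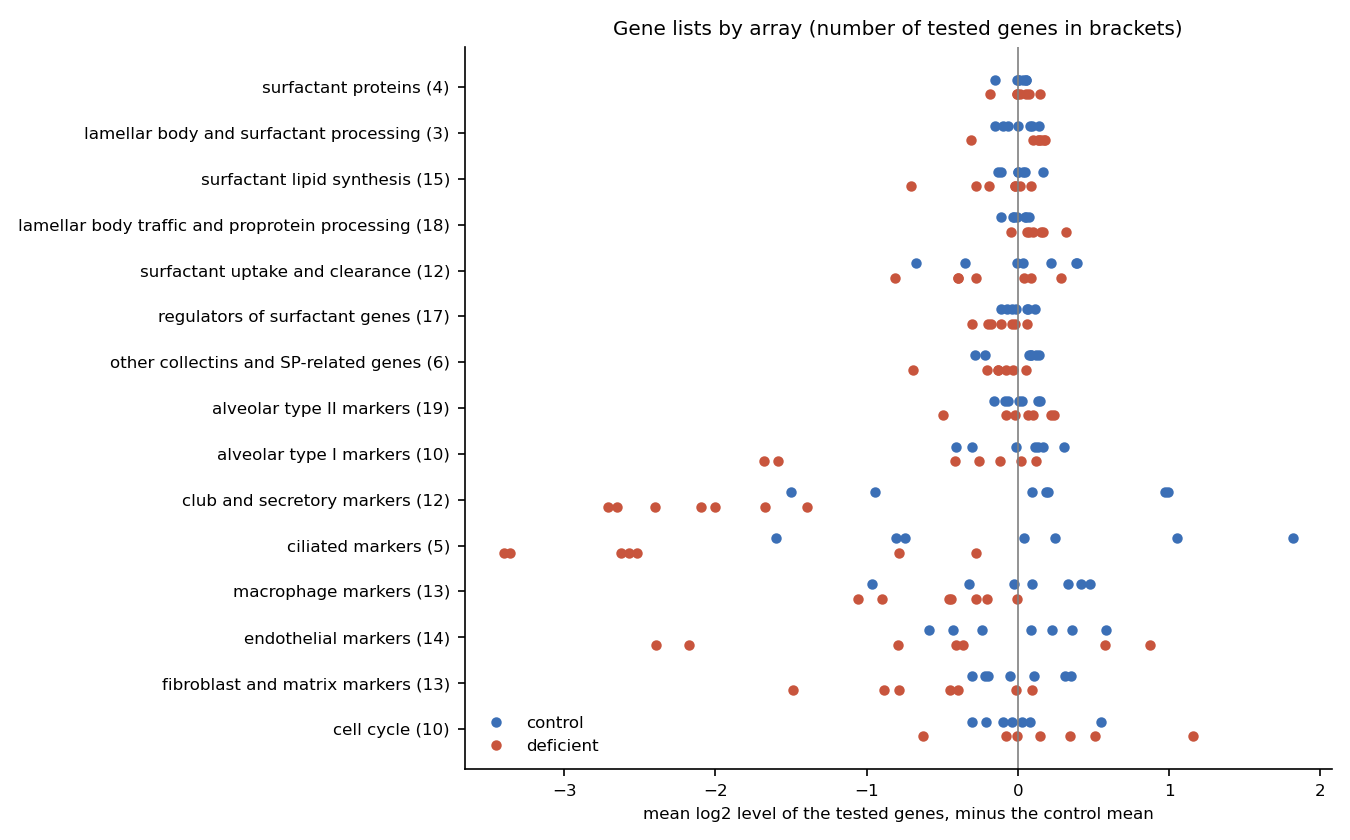
Each point is 1 array (blue control, red deficient), placed at the mean log2 level of the tested genes of a list minus the mean of the control arrays, with the number of tested genes in brackets. The surfactant gene points lie within 0.2 of 0 on both sides, while club and ciliated markers of deficient arrays reach below -2.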

How the data were processed

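Total RNA was extracted with Trizol and biotinylated cRNA hybridised to Affymetrix arrays, per the labels' protocols. The deposited values are log2 probeset levels that the authors made with GCRMA, per the submitters' processing notes, a method that corrects each probe for background by its base content, brings arrays to one distribution and combines the probes of a probeset. The software version and genome build are not given in the sources used here. Array signal can level off at high brightness, and whether it did for the members was not tested.

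The table held 22690 probesets, 64 of them controls. By the platform annotation (which may be out of date) 20380 had 1 gene, 691 had several and 1555 had none; 20351 had a gene ID in the RefSeq table of GRCm38.p6, which changed 0 symbols. Probesets with a value above 4 in at least 7 of 14 arrays were tested (12701, with 9925 left out). Groups came from the sample titles. limma 3.58.1 in R 4.3.3 fitted 1 group term (lmFit, eBayes), two-sided, with Benjamini-Hochberg adjustment over all probesets tested and a threshold of 0.05; the code was tested on simulated data. Single values were compared by two-sided exact permutation over 3432 splits, for which the smallest p is 0.000583. Correlations used deviations from group means and 100000 permutations within groups. For arrays their number limits the precision: the SE of a member's difference was 0.07 to 0.30, against a median of 0.18.

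The genes named are all member probesets, Epas1, the 6 genes most alike in pattern and, for each other surfactant list, the 3 tested genes of lowest p and the 1 of highest mean, a gene being represented by its brightest probeset. Scgb1a1 (the tested club marker that was higher), Cxcl15, Slc34a2, Mbl1, Nkx2-1 and Foxj1 are named outside this rule. Marker lists of other cells are given by counts and medians. Members and lists were chosen with earlier results of these data known. Alternatives covered the filter, normalisation, variance model, array weights, shared numbers, RNA quality and arrays left out. The omission of deficient 1 and deficient 5 and the comparison of probesets of 1 gene, pooled and within groups, were added after seeing the data.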

Additional observations from a re-analysis of the deposited data

Results flagged for a closer look

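In 26 groups of 7 arrays (13 probesets, 2 groups), 5 results had a lowest array far from the others, by a gap past Dixon's 95% critical value for the group's range, where chance gives about 1 in 20. Control 4 was the lowest control in 3 of them, the first Sftpa1 probeset (13.74), Sftpd (13.33) and the first Lpcat1 probeset (12.94). Deficient 3 was lowest in the first Sftpa1 probeset (13.56), and control 1 in the second Sftpc probeset (13.62).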

How the results depend on the processing

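Each of the 13 member differences was recomputed under 25 alternatives, 14 of which left out 1 array. Of these 325 values 304 kept their direction and their side of the threshold, 17 changed sign and 4 newly passed. The sign changed only for differences of 0.12 or less in size. Without deficient 3 and deficient 6 the first Sftpa1 probeset differed by 0.041 and Napsa by 0.010. Without deficient 1 and deficient 5 the values were -0.0064 for the second Sftpa1 probeset, -0.043 and -0.040 for the Sftpc probesets and 0.27 for the third Abca3 probeset. Quantile normalisation gave -0.0044 for Sftpb and -0.0011 for Sftpd. Array weights gave -0.022 for the first Sftpc and 0.26 for the third Abca3 probeset. The mean of both Sftpa1 probesets differed by 0.032.

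With 1 array left out, differences ran from -0.081 to 0.023 for the first Sftpa1 probeset (positive without deficient 3), from -0.0018 to 0.043 for Sftpb (negative without control 6), from -0.012 to 0.055 for the first Sftpc probeset (negative without deficient 1), from -0.0067 to 0.074 for Sftpd (negative without control 4), from -0.27 to 0.052 for the third Abca3 probeset (positive without deficient 1, or at 0.035 without deficient 5) and from -0.15 to 0.011 for Napsa (positive without deficient 3). The differences of the first and second Abca3 and of all Lpcat1 probesets kept their sign under the 25 alternatives. Array weights called the second Abca3 (0.50, limma adjusted p = 0.0357) and the second and the third Lpcat1 probesets (0.62, adjusted p = 0.0223, and 0.89, adjusted p = 0.0178), and the omission of deficient 1 and deficient 5 called the third Lpcat1 probeset (1.19). The exact permutation test, unadjusted, passed for the second (0.72) and the third (0.92) Lpcat1 probesets. With the shortened number of the descriptions as a random block the differences of these 2 Lpcat1 probesets were 0.73 and 0.91. Their limma p was 0.0437 and 0.0333, with an adjusted p of 0.989 for both, and may be too small because that fit still counts arrays and not numbers.

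Of all probesets, 5 passed in the fit as described, 0 with no filter (2253 at an unadjusted p under 0.05), 9 with a trended robust variance, 1900 with array weights, 0 with that random block (600 at an unadjusted p under 0.05), 31 without deficient 3 and deficient 6, and 264 without deficient 1 and deficient 5. With 1 array left out the count ran from 0 (without deficient 2 or deficient 4, with 1440 and 1633 at an unadjusted p under 0.05) to 85 (without control 4). The causes were not tested. Same-numbered arrays of the 2 groups correlated at -0.23 to 0.22 in their deviations, with 2 of 7 pairs above 0.1. No test was made on these correlations, so they cannot show whether the numbers pair the arrays. With the replicate number as a block 2 probesets passed and 0 members.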
